A study of Mus musculus with 4 samples.

Results

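The genes described here are the inducible catalytic subunits of the immunoproteasome, Psmb8, Psmb9 and Psmb10, and the subunits of the PA28 activator, Psme1 and Psme2. They are 5 of the 21887 protein-coding genes examined. They were taken by name, from a list proposed with earlier results of these data in view. The question was whether IRF2, a DNA-binding member of the interferon regulatory factors, was found next to these genes in intestinal stem cells, marked by Lgr5, from the small intestine of mice. Binding was measured by chromatin immunoprecipitation followed by sequencing with an anti-IRF2 antibody (Abcam, ab124744). The strain label is Lgr5-EGFP-Ires-CreERT2, a cassette at the Lgr5 locus that immunoprecipitates and inputs alike carried, and no treatment is labelled. The 4 samples are 2 IRF2 immunoprecipitates and 2 inputs. Input data were not analysed here, and the labels do not say how the 5 mice of the design text were divided among the samples. IRF2 replicate 1 is the library titled IntestinalStem and IRF2 replicate 2 the library titled ISC-rep1.

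The proteasome is a barrel of alpha (Psma) and beta (Psmb) subunits that cuts proteins into peptides. Its catalytic sites lie in the constitutive subunits Psmb5, Psmb6 and Psmb7. Interferon induces Psmb8, Psmb9 and Psmb10, which take the places of Psmb5, Psmb6 and Psmb7 in newly made particles and shift cleavage towards peptides that fit MHC class I. PA28 is a ring of Psme1 (PA28 alpha) and Psme2 (PA28 beta) that caps the barrel and opens its gate. IRF1 and IRF2 recognise repeats of the bases GAAA, and IRF2 is known both as a repressor and as an activator of interferon-responsive genes.

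The sequences below show where a spaced GAAA repeat lay, or was not found, relative to the start sites. Of the genes printed, only Psme1 had both a full motif in the window searched and a peak. That window ran from 250 bases before to 50 after the start, so motifs elsewhere under the peaks would be missed. They are RefSeq sequences of GRCm38.p6, the assembly behind mm10, and are written in the direction of transcription of the gene named first. The IRF motif searched was GAAA, any 2 bases and GAAA, on both strands. It reads TTTC, any 2 bases and TTTC on the opposite strand, and was allowed to overlap other motifs. The Psmb8 sequence is the 250 bases before its start (chr17:34197945-34198194, plus strand). Its capitals mark, in order, the match to the IRF motif with 1 mismatch and a match to TTCNNNGAA, the motif of STAT factors. The Psmb9 sequence is the whole interval of 225 bases between the facing starts of Psmb9 and Tap1 (chr17:34187331-34187555, minus strand). It has no capitals because no motif searched was found there. The Psme1 sequence spans transcript positions 6 to 35 (chr14:55578499-55578528, plus strand), and that of the constitutive subunit Psmb3 spans positions -183 to -134 (chr11:97703251-97703300, plus strand). In both, the capitals mark the full IRF motif.
Psmb8: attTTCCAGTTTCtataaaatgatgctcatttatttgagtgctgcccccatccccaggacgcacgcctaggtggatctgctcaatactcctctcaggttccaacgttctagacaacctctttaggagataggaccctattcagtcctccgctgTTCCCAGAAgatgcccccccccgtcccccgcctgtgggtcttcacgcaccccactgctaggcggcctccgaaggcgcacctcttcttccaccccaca
Psmb9 to Tap1: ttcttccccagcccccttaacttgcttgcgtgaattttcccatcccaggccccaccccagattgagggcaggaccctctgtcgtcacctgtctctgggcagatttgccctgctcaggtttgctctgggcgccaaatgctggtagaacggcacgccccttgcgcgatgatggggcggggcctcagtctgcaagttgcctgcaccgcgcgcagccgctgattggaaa
Psme1: gtgcTTTCGCTTTCccttcccgctgcccac
Psmb3: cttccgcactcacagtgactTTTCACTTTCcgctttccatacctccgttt

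Peak lists and summit values are the authors' own. Each peak carries a whole number of unstated unit in the deposited summit track, called the summit value, which is used here only to rank and describe peaks within a list. Replicate 1 had 380 peaks with summit values from 13 to 169, and replicate 2 had 238 with values from 10 to 80. Read depth is unknown for both libraries, so a gene without a peak was not called, which does not show that IRF2 was absent. With 2 libraries of 1 group no test between conditions exists, and nothing says whether the libraries came from separate animals. Peak lists do not measure expression, so the labelled cell type could not be checked against its markers. No peak lay within 5000 bp of any of 10 stem cell, 15 leukocyte, 4 secretory or 4 absorptive marker genes in either list. Within that distance of a gene end, 0.795% of all protein-coding genes had a peak in replicate 1 and 0.804% in replicate 2. Absence at so few markers is therefore not informative.

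All 5 genes had an IRF2 peak in replicate 1, and Psmb8 and Psmb9 also had one in replicate 2. A peak was assigned when its midpoint lay within 5000 bp of either end of the gene. By that rule 0.795% of all protein-coding genes had a peak in replicate 1 and 0.804% in replicate 2, and 0.164% had a region shared by both lists. Of the 14 constitutive genes Psma1 to Psma7 and Psmb1 to Psmb7, 1 (Psma1) had a peak in replicate 1 and 0 in replicate 2. Psma3 had a peak in both lists, 404 and 338 bp from its start site. It is not in this count because its nearer gene end was 5744 and 5678 bp away. The median distance to the nearest replicate 1 peak was 360 bp over the 5 inducible and PA28 genes, 2.60 Mb over the 14 constitutive genes and 2.36 Mb over all protein-coding genes. In replicate 2 the medians were 299 kb, 3.52 Mb and 3.11 Mb. Within 1000 bp of an end the counts for the members were again 5 and 2, against 0.425% and 0.521% of all genes. The members are not independent positions. Psmb8 and Psmb9 lie close together on chromosome 17, and Psme1 and Psme2 on chromosome 14. Both members with a replicate 2 peak are thus from a single locus. No test was made of these counts.

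**Figure D1:**
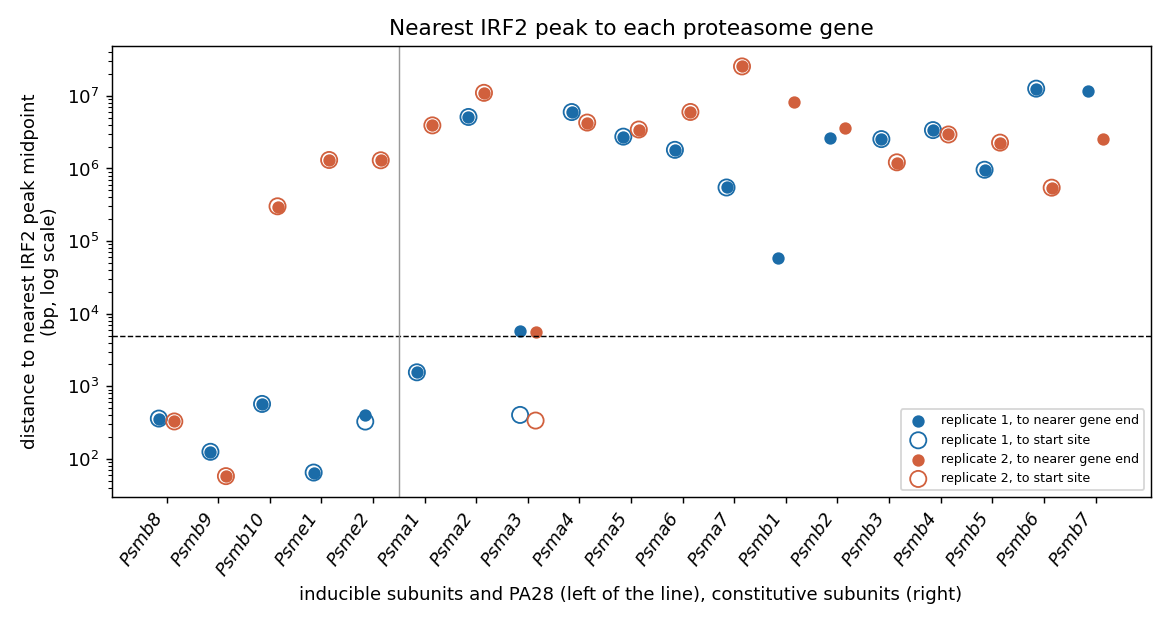
Distance in bp (log scale) from the midpoint of the nearest IRF2 peak to the nearer gene end (filled) and to the nearest start site in the RefSeq promoter table (open), for each gene and library, with a dashed line at 5000 bp. Replicate 1 points of all 5 inducible and PA28 genes lie below the line, and among constitutive genes Psma1 lies below it in replicate 1 and Psma3 lies below it in both libraries only when measured from its start site.

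Psmb8, the subunit that replaces Psmb5, had the highest summit value of the 5 genes in replicate 1. In replicate 2, where only Psmb8 and Psmb9 had a peak, that of Psmb8 was the higher. The Psmb8 peak had a value of 45 in replicate 1 (rank 49 of 380, a value held by 3 peaks) and 21 in replicate 2 (rank 21 of 238, held by 8). The replicate 1 peak covered chr17:34197930-34199180 and the replicate 2 peak chr17:34198205-34198842. Psmb8 lies on the plus strand at 34198195 to 34201454, so both midpoints fell inside the gene, 360 and 328.5 bp from its start. The summits were 237 and 221 bp downstream of the start and 16 bp from each other. The replicate 2 interval lay wholly within that of replicate 1 and covered 51.0% of it.

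The printed upstream sequence of Psmb8 was inside the replicate 1 peak but outside the replicate 2 peak, which began 10 bp after the start. Its STAT motif match lay at -97 to -89 and its imperfect IRF match at -247 to -238. A 1-mismatch match is common, since 35.4% of all promoter windows hold one. Neither summit fell in the 300 bases searched, and the sequence under the summits was not examined because no genome of this build was used here.

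Psmb9, the subunit that replaces Psmb6, shares its peak with Tap1, which encodes a chain of the peptide transporter of the endoplasmic reticulum. The peak had a summit value of 41 in replicate 1 (rank 62 of 380, held by 2 peaks) and 19 in replicate 2 (rank 34 of 238, held by 5). The intervals were chr17:34186588-34188323 and chr17:34186868-34187908. Psmb9 is on the minus strand at 34182030 to 34187330, and Tap1 starts at 34187556 on the plus strand. In replicate 1 the midpoint was 125.5 bp from the start of Psmb9 and 100.5 bp from that of Tap1, and in replicate 2 the distances were 58 and 168 bp. The nearer gene by midpoint thus differed between the libraries, whereas both summits were on the Psmb9 side, 194 and 130 bp downstream of its start.

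The Psmb9 peak was among the widest of both lists, at 1736 bp in replicate 1 (rank 13 by width) and 1041 bp in replicate 2 (rank 12). The replicate 2 interval lay within the replicate 1 interval and covered 60.0% of it. Between the facing starts, in the sequence printed above, none of the 4 motifs searched was found. Psmb8 and Psmb9 flank Tap1, and Tap2, the other transporter chain, follows Psmb8. A peak at the start of Tap2 had the summit values 58 and 19. Its midpoints were 3202.5 and 3140 bp from the far end of Psmb8, so by the 5000 bp rule Psmb8 had 2 peaks in each list.

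Psmb10, the subunit that replaces Psmb7, had a peak in replicate 1 alone. Its summit value was 27 (rank 137 of 380, held by 7 peaks), and the interval was chr8:105937101-105938538. At 1438 bp it was the 20th widest of its list. Psmb10 is on the minus strand at 105935728 to 105938392. The midpoint was 572.5 bp inside the gene from its start, and the summit 397 bp downstream of it, the farthest downstream of the peaks nearest to the 5 genes. The nearest replicate 2 peak was 299 kb away. The same peak was within 5000 bp of Lcat, which esterifies cholesterol in plasma lipoproteins (1731.5 bp), and of Ctrl, a chymotrypsin-like protease (3957.5 bp), but Psmb10 was the gene it overlapped.

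The PA28 genes lie close together on chromosome 14 and had separate peaks in replicate 1. Psme1 had the lowest summit value of the 5 genes, 22 (rank 191 of 380, held by 14 peaks), just under the list's median of 22.5. Its interval, chr14:55578299-55578819, spanned the start at 55578494 on the plus strand, with the midpoint 65 bp and the summit 109 bp downstream. A second, lower peak lay further inside Psme1 (chr14:55579282-55579651, summit value 19, rank 260, summit 994 bp downstream). None of the other 4 genes had a second peak of its own. Fitm1 (1607 bp) and Emc9 (2960 bp) also had an end within 5000 bp of the first peak.

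Psme1 was the member with a full IRF motif in its promoter window. The motif, shown in capitals above, lay at transcript positions 10 to 19, inside the peak, and ended 91 bp before the summit. Its last bases overlap a further match to the shorter pattern AANNGAAA.

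Psme2 had a higher peak than its partner, with a summit value of 39 (rank 67 of 380, held by 4 peaks) in chr14:55590221-55591166. Psme2 is on the minus strand at 55587440 to 55591101, and the table gives it a second start at 55591021. The midpoint was 407.5 bp and the summit 285 bp downstream of the first start, and the summit was 205 bp downstream of the second. The peak ended before Rnf31, a gene of the linear ubiquitin ligase complex that starts at 55591713, 1019.5 bp from the midpoint. Neither promoter window of Psme2 held any of the 4 motifs. In replicate 2 the nearest peak was 1.31 Mb from Psme1 and 1.30 Mb from Psme2, with no peak within 100 kb of either gene.

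**Figure D2:**
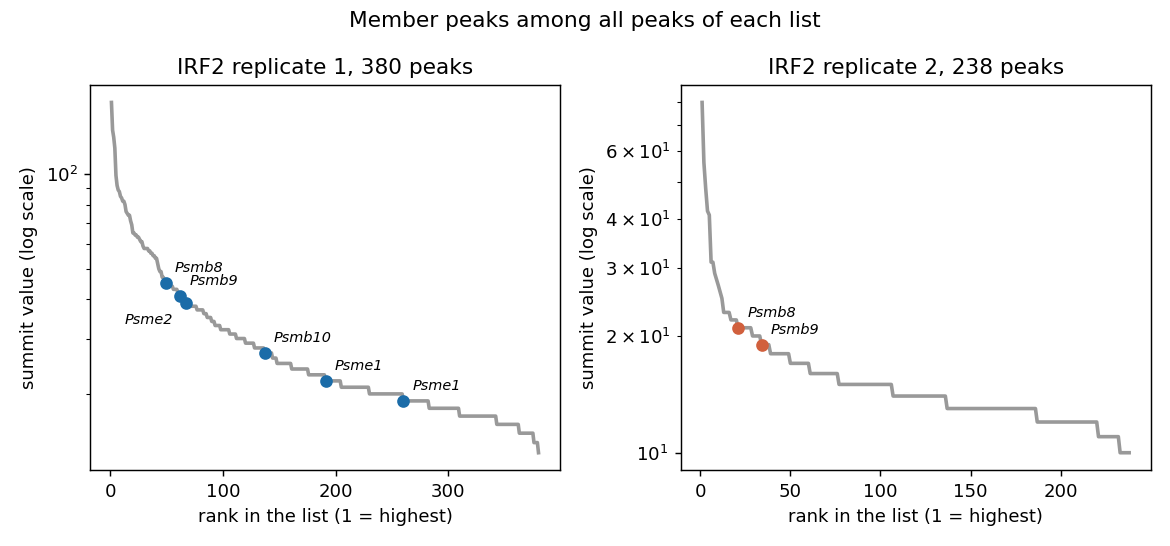
Summit value (log scale, unit not stated) against rank for every peak of each library (grey line), with the peaks at the 5 genes marked. In replicate 1 Psmb8, Psmb9 and Psme2 lie at ranks 49 to 67 and Psmb10 and Psme1 lower, and in replicate 2 Psmb8 and Psmb9 lie at ranks 21 and 34.

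The order of summit values in replicate 1 was Psmb8, Psmb9, Psme2, Psmb10 and Psme1, and in replicate 2 Psmb8 again stood above Psmb9. Values of neighbours in this order cannot be separated, because each is a single value without an error. Peaks within 5000 bp of any gene end had a median summit value of 24 in replicate 1 (143 peaks) and 14 in replicate 2 (133 peaks). Psme1 was under that median and the other 4 genes were above it. The members called in both libraries thus included the highest-ranked pair of replicate 1, while Psme2, only 5 ranks below Psmb9, was not called in replicate 2.

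The peaks at these genes, leaving out the one at Tap2, had their summit downstream of a start site, inside the gene. This held for 6 of 6 replicate 1 summits, both Psme1 peaks included, and for 2 of 2 in replicate 2, counting summits within 1000 bp of the nearest protein-coding start. Most other peaks lay on the same side. Of the remaining summits within 1000 bp of a start, 54 of 76 were downstream in replicate 1 (71.1%), and 67 of 88 in replicate 2 (76.1%). Their median offsets were 171.5 and 180.5 bp, against 221 and 175.5 bp at the members. The side is therefore described, and is not called particular to these genes.

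**Figure D3:**
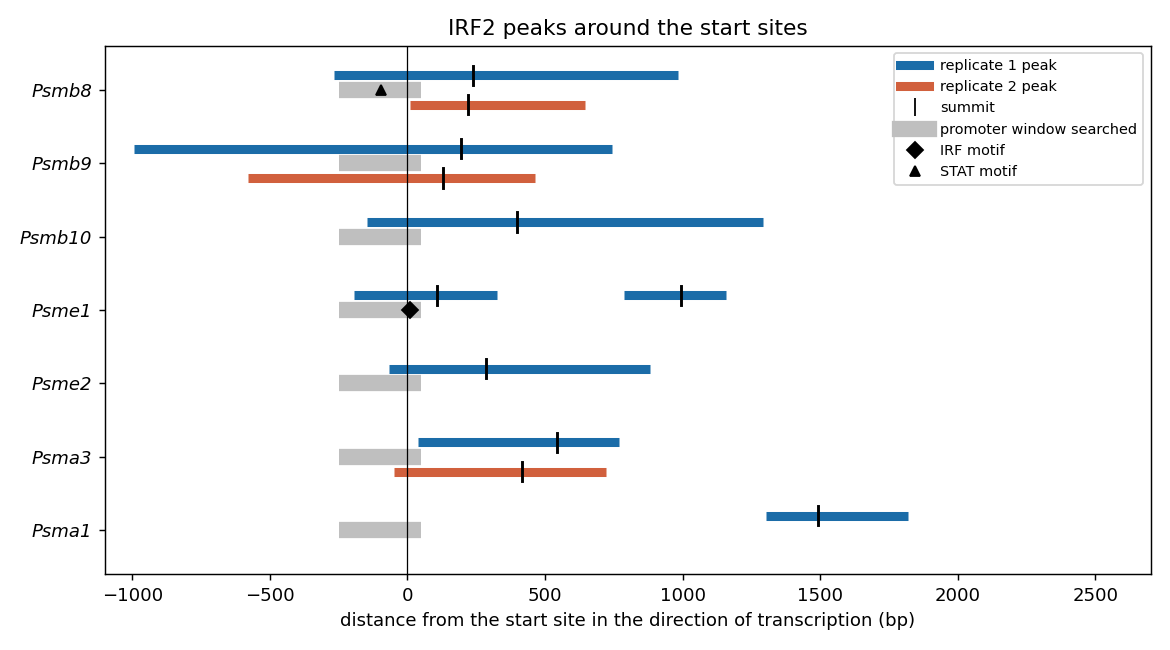
IRF2 peak intervals and summits of both libraries around the start site of the 5 genes and of Psma3 and Psma1, in bp in the direction of transcription, with the promoter window searched in grey and motif matches marked. All summits shown are to the right of the start, and the full IRF motif appears at Psme1 alone among the genes drawn.

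Among the constitutive genes, Psma3 and Psma1 had a peak inside the gene near the start. Psma3, an alpha subunit of the barrel, was missed by the gene-end rule, because the gene's low-coordinate end lies 5744 bp from the replicate 1 midpoint and 5678 bp from that of replicate 2. The promoter table places its start at 70974623 on the plus strand of chromosome 12. Measured from there, the midpoints were 404 and 338 bp downstream and the summits 545 and 417 bp downstream. Its peak was in both lists (chr12:70974663-70975391 and chr12:70974576-70975346), with summit values of 25 (rank 148 of 380) and 12 (rank 187 of 238, held by 34 peaks). These intervals overlapped by 684 bp, 93.8% of the replicate 1 and 88.7% of the replicate 2 peak, a larger share of the replicate 1 interval than at Psmb8 or Psmb9.

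With distances taken from start sites, 0.663% of 17492 genes had a replicate 1 peak within 5000 bp, 0.686% a replicate 2 peak and 0.143% a shared region. The count for the inducible and PA28 genes stayed at 5, 2 and 2. Within 1000 bp of a start, 5 and 2 members had a peak, against 0.475% and 0.56% of genes. Of the 11 constitutive genes in the table, 2 had a peak in replicate 1 (Psma1 and Psma3), 1 in replicate 2 (Psma3) and 1 a shared region (Psma3). Psma1, another alpha subunit, had its peak in replicate 1 with a summit value of 20 (rank 230, held by 30 peaks), 1560.5 bp inside the gene from its start. Its nearest replicate 2 peak was 3.92 Mb away.

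The constitutive counterparts of the inducible subunits had no peak near them. Few genes did, since 0.795% of all protein-coding genes had a replicate 1 peak within 5000 bp and 0.804% a replicate 2 peak. The absences in this paragraph are therefore not particular to proteasome genes. The nearest peaks in replicates 1 and 2 were 961 kb and 2.27 Mb from Psmb5, 12.6 Mb and 544 kb from Psmb6, and 11.5 and 2.58 Mb from Psmb7. The other 9 constitutive genes had their nearest peak 58.8 kb (Psmb1, replicate 1) to 25.4 Mb (Psma7, replicate 2) away. Of 33 further proteasome genes, which encode regulatory particle subunits, other activators, assembly factors and tissue-specific subunits, 0 had a peak in replicate 1 and 1 in replicate 2. That gene was Psmd2, a scaffold subunit of the regulatory particle (summit value 12, rank 187, summit 268 bp downstream of its start). The next nearest were Psmd9 (95.4 and 215 kb) and the assembly factor Psmg2 (116 kb in both).

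Motif content of the promoter windows, 250 bases before to 50 after the start, was compared over the 6 windows of the 5 members and the 12 windows of 11 constitutive genes. The full IRF motif was in 1 of 5 members (Psme1) and in 1 of 11 constitutive genes (Psmb3), against 3.44% of all 32851 windows. Psmb3 had its match, printed above, at -163 to -154, and its nearest peaks were 2.53 and 1.20 Mb away. The share among all windows that overlap a replicate 1 peak was 31.5% (23 of 73), and for replicate 2 it was 11.6% (10 of 86). Windows under a shared region held it in 9 of 26 cases (34.6%). Psmb8, Psmb9, Psmb10 and Psme2 thus belong to the majority of windows under a peak that lack these letters. Their summits lay 130 to 397 bp downstream of a start, beyond the 50 bases searched there. Whether the motif lies under those summits was therefore not examined.

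The shorter IRF pattern AANNGAAA, found in 23.9% of all windows, was in 1 member (Psme1) and 4 constitutive genes (Psma3, Psmb3, Psmb4 and Psmb6). The match at Psma3 lay at -129 to -122, outside both of its peaks. The STAT pattern TTCNNNGAA was in 1 member (Psmb8) and 0 constitutive genes (8.3% of all windows). The antioxidant response pattern TGACNNNGC, which NFE2-family factors recognise in proteasome genes, was in 0 members and in the constitutive genes Psmb5 and Psmb6 (12.4% of all windows). A match describes letters in a window and does not show a binding site.

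The genes most like the members in both lists were found by comparing the percentile rank of each gene's highest peak within 5000 bp over the 2 libraries, with 0 for no peak. For Psmb8 in replicate 1 that highest peak was the one at Tap2, with a summit value of 58. Nearest to the mean of Psmb8 and Psmb9 (percentiles 87.9 and 87.7) were Tap1, Tbk1 and Xpot. Tap1 shares the peaks of Psmb8 and Psmb9, so its likeness follows from their position. Tbk1 and Xpot share a region with summit values of 43 and 20. Nearest to the mean of Psmb10, Psme1 and Psme2 (percentile 64.6 in replicate 1) were Cadps2, Gm6034, H2-T22 and Irgm1, tied at a summit value of 28 and without a replicate 2 peak. Likeness here rests on 2 values per gene.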

How the data were processed

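IRF2 and input chromatin of Lgr5-positive cells was fixed in 1% formaldehyde for 15 min, and 30 ug entered each immunoprecipitation, per the labels' protocols. Per the submitters' processing notes, reads were aligned to mm10 with BWA 0.7.12 and peaks called with MACS. The MACS version, thresholds and depth were not given in the sources used here. Libraries were called separately, per the file headers. The deposited summit score has no stated unit. The rep2 tracks in the replicate 2 deposit repeat the replicate 1 summits line for line and its interval coordinates, and were counted once.

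Intervals were joined to summits, and midpoints were compared with both ends of RefSeq GRCm38.p6 protein-coding genes and with start sites from its promoter table, matched by gene ID (5 of 5 members, 11 of 14 constitutive genes, all but Psmb1, Psmb2 and Psmb7). Shared regions overlap by at least 1 bp. Named genes were the members, constitutive genes, other proteasome genes near a peak and next nearest, genes at member peaks, and the 3 most alike per class, with ties. The members and lists were chosen with earlier results of these data known. Alternatives varied window, peak position, score, overlap, library and motif. The distance and motif searches were tested on simulated data. Python 3.11.15 and pandas 2.3.3 were used.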

Additional observations from a re-analysis of the deposited data

How the results depend on the processing

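Of 49 alternative values, 33 equalled the reported value and 1 further count was within 1.5 times of it. The counts of 5 and 2 members with a peak held with windows of 1000 and 25000 bp, summits in place of midpoints, and start sites. Of all protein-coding genes, 0.425% and 0.521% had a peak at 1000 bp. From start sites within 5000 bp, 0.663% and 0.686% of genes did. Among the higher-scored 50% of replicate 1 peaks, 4 members kept a peak, Psme1 being the one lost. No share over all genes is given for 25000 bp, for summits or for the higher-scored 50%. Counts at those settings, also of constitutive genes, therefore have no background beside them. Members with a shared region numbered 2 under each overlap rule. With a library left out no region can be shared, and the count became that of the other list, 2 or 5 members. For constitutive genes, replicate 1 gave 0 at 1000 bp and in the higher-scored 50%, and 2 at 25000 bp and from start sites. Replicate 2 gave 1 at 25000 bp and from start sites, also within 1000 bp of them. The shared count was 1 at 25000 bp and from start sites. With a library left out, the other list alone gave 0 or 1. The start-site settings for shared regions and for 1000 bp were chosen after seeing the data. With 1 mismatch allowed, 2 of 5 members and 4 of 11 constitutive genes held the IRF motif, against 35.4% of all windows. With AANNGAAA, 1 member and 4 constitutive genes did, against 23.9% of all windows. The highest peak within 5000 bp of Psmb8 in replicate 1, at Tap2, had a summit value of 58 in place of 45. The peak sequence itself was not searched. No paired analysis was possible because only IRF2 immunoprecipitates, a single group, had files to compare. Without read depths, what depth limits cannot be given as a number.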
